A study of Mus musculus with 14 samples.

Results

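Glycolysis and glycogen metabolism were followed here through 33 genes, listed by the enzyme, transporter or regulator they encode, out of the 42396 rows of both count tables of mouse heart RNA. Of the 33 genes, 32 passed the filter for testing, that is, more than 1 CPM (the read count scaled to the library's size) in at least 1 library. The gene that did not pass was Aldoc, the brain form of aldolase, with 2 to 36 counts per library. Glycolysis splits glucose into pyruvate, which is either turned into lactate in the cytosol or burned in mitochondria, and glycogen is the store from which the heart draws glucose when demand rises. The adult heart normally takes most of its energy from fatty acids, and it leans more on glucose when mitochondrial respiration fails. Many steps have a muscle gene and a gene used in other tissues, so the mix of isoforms also describes the tissue.

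All 14 hearts were from female FS6KD mice, which carry a gene-trap knockdown of Ndufs6 (Ndufs6 gt/gt), a subunit of respiratory complex I, and develop a mitochondrial cardiomyopathy, so no group without the knockdown was compared here. In the knockout experiment, 4 Atf3+/+FS6KD hearts were compared with 4 Atf3-/-FS6KD hearts at 12 weeks. Atf3 encodes a stress-induced transcription factor, and the deletion was made by CRISPR-Cas9 in fertilized eggs. Founders were intercrossed to give Atf3-null mice with the FS6KD background, and the paper does not state the cross that gave the Atf3+/+FS6KD controls. In the AAV experiment, 3 hearts labelled MyoAAV2-shCtrl were compared with 3 labelled MyoAAV2-shAtf3. The vector, MyoAAV2, is a muscle-directed form of adeno-associated virus. It carried a short hairpin RNA and was given to newborn mice, with hearts taken after 12 weeks.

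The groups are named by their labels throughout, and 2 facts limit them. The headers of the AAV count table assign the hairpins in the opposite way to the labels. Atf3 itself read 10.1 to 14.1 CPM under the label shCtrl and 12.1 to 21.2 CPM under the label shAtf3, so each direction given for the vectors holds only if the labels do. In the knockout experiment Atf3 read 25.8, 6.89, 6.91 and 6.36 CPM in the libraries labelled Atf3+/+FS6KD and 25.6, 37.6, 22.7 and 14.3 CPM in those labelled Atf3-/-FS6KD. A count over the whole gene includes exons outside the deletion, so it does not check the genotype. Ndufs6 was low in all libraries, at 2.34 to 3.79 CPM. Total counts per library were 30085432 to 42409691, except for replicates 3 and 4 of both knockout genotypes, which held 112904389 to 134920825. Fold changes among replicates 1 and 2 and among replicates 3 and 4 are therefore given for several members. The study calls its knockout RNA-seq samples biological replicates, while the labels only number the libraries, and p-values measure the spread between these libraries.

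Promoters are shown for 6 of the members, because Atf3 binds the cAMP response element (CRE). The lactate dehydrogenase pair, Ldha and Ldhb, differ at this motif in the windows shown. The sequences are the 250 bases before an annotated start, 5′ to 3′, from RefSeq (GRCm38.p6). Ldha has 2 such windows, Aldoa 3 and Pfkfb1 4, and the other genes shown have 1. Where there were several, a window with a match to the CRE or the AP-1 motif was taken first. After that the one with the most matches was taken, so the choice favours matches. Capitals mark matches on either strand to the CRE TGACGTCA, the AP-1 motif TGANTCA, the hypoxia response core ACGTG, the E-box CACGTG, the TATA box TATAAA or the ERR element AAGGTCA. Adjacent or overlapping matches run together, and every E-box holds the hypoxia core on both strands.
Ldha (chr7:46845554-46845803, plus strand): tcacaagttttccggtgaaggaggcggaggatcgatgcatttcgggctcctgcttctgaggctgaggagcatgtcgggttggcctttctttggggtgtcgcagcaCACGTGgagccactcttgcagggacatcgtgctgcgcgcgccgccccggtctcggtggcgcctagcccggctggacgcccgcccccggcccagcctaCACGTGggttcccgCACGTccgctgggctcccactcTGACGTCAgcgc
Ldhb (chr6:142507958-142508207, minus strand): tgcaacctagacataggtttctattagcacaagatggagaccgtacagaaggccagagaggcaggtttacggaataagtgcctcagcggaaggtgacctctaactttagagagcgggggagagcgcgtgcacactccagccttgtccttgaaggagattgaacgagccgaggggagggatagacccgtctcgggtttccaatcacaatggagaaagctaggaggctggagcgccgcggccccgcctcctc
Aldoa (chr7:126799255-126799504, minus strand): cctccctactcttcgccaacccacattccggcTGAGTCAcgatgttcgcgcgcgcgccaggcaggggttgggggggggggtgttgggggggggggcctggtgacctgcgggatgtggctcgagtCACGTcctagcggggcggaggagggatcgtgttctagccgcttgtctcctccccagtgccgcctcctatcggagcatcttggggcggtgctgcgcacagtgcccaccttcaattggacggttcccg
Pygb (chr2:150786546-150786795, plus strand): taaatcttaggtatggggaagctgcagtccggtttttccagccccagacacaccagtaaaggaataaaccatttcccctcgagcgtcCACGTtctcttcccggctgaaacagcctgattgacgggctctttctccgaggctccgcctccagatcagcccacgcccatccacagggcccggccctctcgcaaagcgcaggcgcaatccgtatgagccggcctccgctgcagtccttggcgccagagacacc
Gys1 (chr7:45434589-45434838, plus strand): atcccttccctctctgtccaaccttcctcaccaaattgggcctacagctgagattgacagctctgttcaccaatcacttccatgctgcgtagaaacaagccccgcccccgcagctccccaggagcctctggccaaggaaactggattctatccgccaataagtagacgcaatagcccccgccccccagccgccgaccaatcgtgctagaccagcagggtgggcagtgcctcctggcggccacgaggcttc
Pfkfb1 (chrX:150589666-150589915, plus strand): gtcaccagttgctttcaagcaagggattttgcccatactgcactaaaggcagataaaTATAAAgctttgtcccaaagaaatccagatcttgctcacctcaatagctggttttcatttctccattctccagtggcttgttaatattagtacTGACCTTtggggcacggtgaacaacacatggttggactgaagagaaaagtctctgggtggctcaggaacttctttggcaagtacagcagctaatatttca

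RefSeq gave promoters for 32 of the 33 genes, all but Slc2a4, in windows that also take in the 50 bases after the start. Ldha was the only member with the CRE, starting 12 bases before the annotated start used above, 1 of its 2 (3.12% of the 32 genes, against 2.03% of all 27025 genes). Aldoa, muscle aldolase, was the only one with the AP-1 motif, at base -218 (3.12% against 8.97%). The hypoxia response core was found in 18 members (56.2%, against 21.8% of all genes), and the E-box in 6 (18.8% against 8.09%). The TATA box was found in 2 members, Slc2a1 and Pfkfb1 (6.25% against 15.7%), and the ERR element in 3, Eno1, Tpi1 and Pfkfb1 (9.38% against 5.38%). Members had more annotated starts than other genes (1.53 windows per gene against 1.22), which raises the chance of a match. A match is a description of these letters and not of binding.

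Per kilobase of merged exons, the highest levels were those of Ldhb, Gapdh, Pgam2, Eno3 and Aldoa. Ldhb, the lactate dehydrogenase subunit typical of heart, was highest on average over the 14 libraries, scaled together, at 1093 ± 89.3 CPM per kilobase (SD, n = 14). It was followed by Gapdh (1022 ± 79.4), the muscle phosphoglycerate mutase Pgam2 (808 ± 75.4), the muscle enolase Eno3 (768 ± 148) and Aldoa (673 ± 41.5). The ranges of Ldhb and Gapdh overlapped, as did those of Gapdh and Pgam2, of Pgam2 and Eno3 and of Eno3 and Aldoa. The order depended on the length used: per kilobase of the longest transcript Aldoa came first (1612 ± 99.3), before Ldhb (1316 ± 108) and Gapdh (1285 ± 99.8). At the low end were Slc2a1 (5.8 ± 0.736), the catalytic phosphorylase kinase subunit Phkg1 (2.22 ± 0.573), Pfkfb1 (1.19 ± 0.518) and Aldoc (0.066 ± 0.0313). In all, 14 of the 33 genes were above 100 CPM per kilobase.

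**Figure D1:**
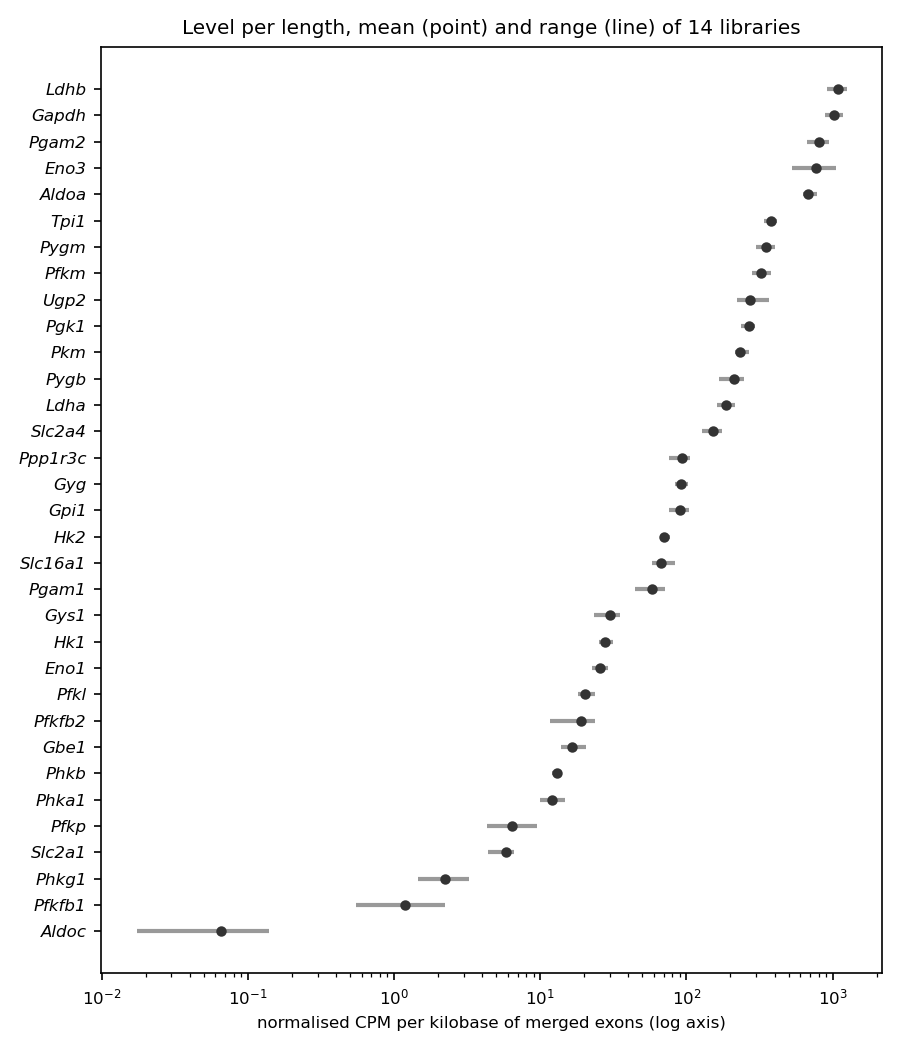
Level of each of the 33 genes in CPM per kilobase of merged exons on a log axis, with the mean (point) and the range (line) of the 14 libraries. Ldhb (1093) and Gapdh (1022) are at the top, and Aldoc (0.066) lies apart at the bottom.

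The muscle or heart form was the higher per kilobase in every pair compared, with either length. The insulin-responsive glucose transporter Slc2a4 stood at 152 ± 16.1 CPM per kilobase and the basal transporter Slc2a1 at 5.8 ± 0.736. Muscle phosphofructokinase, Pfkm, was at 325 ± 26.3, the liver form Pfkl at 20.3 ± 1.77 and the platelet form Pfkp at 6.39 ± 1.43. Ldhb stood above Ldha (186 ± 16.7), Eno3 above Eno1 (25.7 ± 1.8), and Pgam2 above Pgam1 (58.2 ± 9.13). The phosphorylases of glycogen, Pygm (348 ± 28) and the brain form Pygb (210 ± 26.7), were both abundant, and the ranges of the 14 libraries did not overlap (301 to 404 and 166 to 247). Glycogen synthase, Gys1, was at 29.8 ± 3.03.

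In the knockout experiment no member passed the adjusted test, and most members were slightly lower in the Atf3-/-FS6KD hearts. edgeR's quasi-likelihood test with Benjamini-Hochberg adjustment over 15587 genes called 0 members and 0 genes of all (0%), and the lowest adjusted p of a member was 0.248. DESeq2 called 208 genes of all and 1 member, Pygb. Unadjusted p was below 0.05 for 8 of 32 members (25%), against 10.1% of all genes tested. Of these, 7 were lower (Pygb, Gys1, Ldhb, Pfkfb1, Eno3, Pygm and Gpi1), against 4.67% of all genes, and Pgam1 was higher, against 5.41%. The log2 fold change was below 0 for 26 members and not for 6, with a median of -0.08 beside 0.00 over all genes. Groups did not overlap for 2 members (6.25%), both lower, against 5.68% of all genes, 2.62% lower and 3.06% higher. Most members are abundant: of the 29 above 50 CPM on average, 7 were at p below 0.05 and 2 did not overlap, where all genes above 50 CPM gave 11.4% and 6.89%, a comparison added after the values were seen. With library sizes alone in place of TMM factors, 18 members were lower and 14 higher, with a median of -0.02 beside 0.06 over all genes, so that this scaling moved the members and all genes upwards together. In these bulk samples, fewer cells of a type and less RNA per cell cannot be told apart.

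In the AAV experiment no member passed the adjusted test either, and most members read slightly higher in the hearts labelled shAtf3. edgeR called 0 members, where it called 82 of 15220 genes (0.539%), with a lowest adjusted p among members of 0.155. DESeq2 called 310 genes of all and 2 members, Slc16a1 and Pfkfb1. Unadjusted p was below 0.05 for 12 members (37.5%), against 12.7% of all genes. Of these, 10 were higher (Slc2a4, Slc16a1, Pfkfb1, Gapdh, Pgam2, Eno3, Ldhb, Gys1, Gbe1 and Phka1), against 5.05% of all genes, and Hk1 and Slc2a1 were lower, against 7.65%. The median of the members was 0.06, beside -0.00 over all genes, with 22 higher and 10 lower. Groups did not overlap for 14 members (43.8%), 12 higher and 2 lower, against 18.4% of all genes, 8.48% higher and 9.95% lower. Of the 29 members above 50 CPM, 10 were at p below 0.05 and 13 did not overlap, where all genes above 50 CPM gave 15.5% and 23.6%. With library sizes alone, 19 members were higher and 13 lower, with a median of 0.02 beside -0.04 over all genes.

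**Figure D2:**
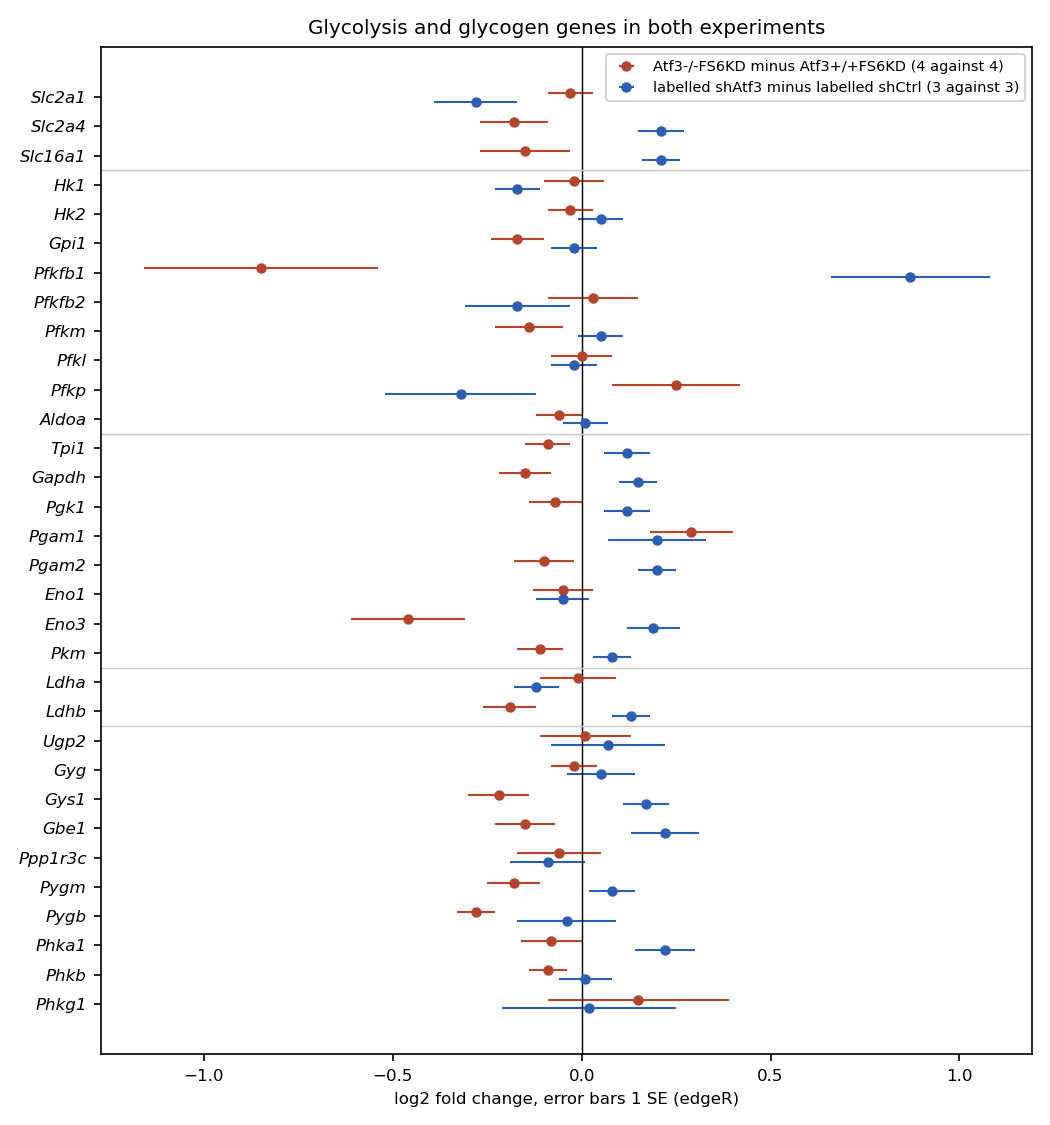
Log2 fold change of the 32 tested genes in the knockout experiment (4 against 4) and in the AAV experiment (3 against 3), with error bars of 1 SE from edgeR. Pfkfb1 lies farthest from 0 in both (-0.85 and 0.87), and most of the other genes lie a little below 0 in the first and a little above 0 in the second.

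Glucose enters the cell through transporters. Slc2a4 (chr11:69942286-69948216) read 479, 618, 499 and 580 CPM in Atf3+/+FS6KD and 448, 471, 494 and 507 CPM in Atf3-/-FS6KD hearts. Of the knockout values, 448 and 471 lay below the control range and 494 and 507 within it (log2 fold change ± SE, the form used below, -0.18 ± 0.09, adjusted p = 0.534 in edgeR), and the value was -0.11 without control replicate 2. In the AAV experiment it read 483, 521 and 523 CPM under the label shCtrl and 578, 574 and 609 CPM under the label shAtf3. These groups did not overlap (0.21 ± 0.06, adjusted p = 0.201 in edgeR).

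Slc2a1 (chr4:119108745-119137330) gave 21.6, 22.7, 21.2 and 23.1 CPM in Atf3+/+FS6KD hearts and 20.9, 21.7, 21.5 and 22.8 CPM in Atf3-/-FS6KD hearts, all within a narrow band (-0.03 ± 0.06, adjusted p = 0.9 in edgeR, and -0.01 without control replicate 4). It gave 20.0, 17.1 and 22.9 CPM under the label shCtrl and 16.4, 18.0 and 15.2 CPM under the label shAtf3. The latter were mostly lower, with overlap in the libraries at 17.1 and 18.0 (-0.28 ± 0.11, adjusted p = 0.362 in edgeR, and -0.17 without shCtrl replicate 3). The lactate and pyruvate carrier Slc16a1 read 259, 374, 268 and 333 CPM in Atf3+/+FS6KD hearts and 267, 291, 260 and 295 CPM in Atf3-/-FS6KD hearts (-0.15 ± 0.12, adjusted p = 0.689 in edgeR). Control replicate 2 was the highest, and without it the Slc16a1 value was -0.05. It read 276, 276 and 280 CPM under the label shCtrl and 319, 312 and 334 CPM under the label shAtf3, without overlap (0.21 ± 0.05, adjusted p = 0.162 in edgeR). With DESeq2 this last difference passed, at an adjusted p of 0.0357.

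Hexokinases phosphorylate glucose on entry. Hk2, the insulin-regulated form, read 422, 456, 411 and 425 CPM in Atf3+/+FS6KD hearts and 427, 394, 405 and 454 CPM in Atf3-/-FS6KD hearts (-0.03 ± 0.06). It read 398, 410 and 412 CPM under the label shCtrl and 401, 407 and 455 CPM under the label shAtf3 (0.05 ± 0.06), so the groups overlapped in both experiments. Hk1, the housekeeping form, read 215, 223, 258 and 261 CPM in Atf3+/+FS6KD hearts and 227, 230, 256 and 228 CPM in Atf3-/-FS6KD hearts (-0.02 ± 0.08). Within the Atf3-/-FS6KD group, replicate 3 stood apart at 256 CPM. In the AAV experiment Hk1 read 269, 240 and 241 CPM under the label shCtrl and 217, 221 and 226 CPM under the label shAtf3, lower without overlap (-0.17 ± 0.06, adjusted p = 0.306 in edgeR).

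Phosphofructokinase commits sugar to glycolysis, and the bifunctional enzymes of the Pfkfb family make and remove its activator. Pfkm read 1159, 1269, 993 and 1143 CPM in Atf3+/+FS6KD hearts and 1141, 966, 948 and 1086 CPM in Atf3-/-FS6KD hearts (-0.14 ± 0.09, and -0.09 without control replicate 2). It read 1008, 1062 and 1130 CPM under the label shCtrl and 1113, 1066 and 1135 CPM under the label shAtf3 (0.05 ± 0.06, and 0.01 without shCtrl replicate 1), with overlap in both experiments. Pfkfb2, the heart form, read 172, 125, 141 and 164 CPM in Atf3+/+FS6KD hearts and 161, 127, 172 and 155 CPM in Atf3-/-FS6KD hearts (0.03 ± 0.12). It read 124, 114 and 132 CPM under the label shCtrl and 84.7, 132 and 111 CPM under the label shAtf3 (-0.17 ± 0.14). The groups of Pfkfb2 overlapped in both experiments, and its AAV value was -0.01 without shAtf3 replicate 1 and -0.32 without shAtf3 replicate 2.

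Pfkfb1 (chrX:150587445-150643878), the form of liver and skeletal muscle, had the largest fold changes of the 32 members and a low level, with 92 to 588 counts per library. In Atf3+/+FS6KD hearts it read 8.56, 9.08, 4.56 and 4.44 CPM, and in Atf3-/-FS6KD hearts 3.37, 5.62, 3.20 and 2.62 CPM. The first 2 control replicates were the high ones, and the groups overlapped through the Atf3-/-FS6KD library at 5.62 (log2 fold change -0.85 ± 0.31, adjusted p = 0.425 in edgeR). The log2 fold change was -0.97 among replicates 1 and 2 and -0.63 among replicates 3 and 4. In the AAV experiment it read 2.22, 2.96 and 3.92 CPM under the label shCtrl and 6.64, 4.65 and 5.23 CPM under the label shAtf3, without overlap (0.87 ± 0.21, adjusted p = 0.155 in edgeR). This difference passed with DESeq2 (adjusted p = 0.0115), without the filter on low counts (0.0140) and without shCtrl replicate 3 (1.09, adjusted p = 0.0278).

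Further down, Gapdh (chr6:125161852-125166467), the first step that makes reducing equivalents, read 4018, 4275, 4397 and 4863 CPM in Atf3+/+FS6KD hearts and 4132, 4181, 3696 and 3768 CPM in Atf3-/-FS6KD hearts. The lower values were those of Atf3-/-FS6KD replicates 3 and 4 (-0.15 ± 0.07, adjusted p = 0.513 in edgeR). Among replicates 1 and 2 its log2 fold change was 0.01, and among replicates 3 and 4 it was -0.31. With the vectors, Gapdh read 4132, 4027 and 4101 CPM under the label shCtrl and 4468, 4547 and 4545 CPM under the label shAtf3. The groups were tight and did not overlap (0.15 ± 0.05, adjusted p = 0.245 in edgeR). Gapdh is often used to scale other transcripts, and between these groups it differed by 1.11-fold.

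Pgam2 (chr11:5801637-5803796) read 633, 737, 635 and 691 CPM in Atf3+/+FS6KD hearts and 638, 693, 566 and 624 CPM in Atf3-/-FS6KD hearts (-0.10 ± 0.08, adjusted p = 0.691 in edgeR). The Pgam2 value was -0.05 without Atf3+/+FS6KD replicate 2 or without Atf3-/-FS6KD replicate 3. It read 660, 672 and 665 CPM under the label shCtrl and 784, 732 and 773 CPM under the label shAtf3, higher without overlap (0.20 ± 0.05, adjusted p = 0.187 in edgeR). Its non-muscle counterpart Pgam1 was the only member with p below 0.05 that was higher in Atf3-/-FS6KD, at 121 ± 17.2 against 99.0 ± 8.53 CPM (SD, n = 4; 0.29 ± 0.11, adjusted p = 0.432 in edgeR).

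Eno3 (chr11:70653125-70662513), which encodes the enolase of striated muscle, read 1237, 1859, 1164 and 1592 CPM in Atf3+/+FS6KD hearts and 1188, 1063, 918 and 1098 CPM in Atf3-/-FS6KD hearts. Control replicates 2 and 4 were high, and replicates 1 and 3 lay within or just above the knockout range (-0.46 ± 0.15, adjusted p = 0.393 in edgeR). Its log2 fold change was -0.46 among replicates 1 and 2, -0.45 among replicates 3 and 4, and -0.32 without control replicate 2. After AAV injection, it read 1254, 1313 and 1445 CPM under the label shCtrl and 1515, 1463 and 1596 CPM under the label shAtf3, without overlap (0.19 ± 0.07, adjusted p = 0.288 in edgeR). Eno3 is also a skeletal muscle gene. Of the 8 skeletal muscle markers, only Ckm and Acta1, which the heart also expresses, were abundant, while the fast myosins Myh1, Myh2 and Myh4 reached at most 0.162 CPM in any library. The summed level of that list (marker levels are CPM of the total count, without TMM factors), carried by Ckm and Acta1, was 3417 to 5735 CPM in Atf3+/+FS6KD hearts and 2496 to 3159 CPM in Atf3-/-FS6KD hearts, and its part in the Eno3 values was not tested.

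Pkm, the last step before pyruvate, read 1167, 1286, 1226 and 1328 CPM in Atf3+/+FS6KD hearts and 1242, 1137, 1120 and 1149 CPM in Atf3-/-FS6KD hearts (-0.11 ± 0.06, adjusted p = 0.578 in edgeR). It read 1093, 1080 and 1090 CPM under the label shCtrl and 1132, 1150 and 1174 CPM under the label shAtf3. The latter did not overlap, but the difference was small (0.08 ± 0.05, adjusted p = 0.532 in edgeR). Its 2 splice forms cannot be told apart in counts per gene.

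Lactate dehydrogenase joins pyruvate and lactate, and its subunits read in opposite directions under the AAV labels without passing adjustment. Ldhb (chr6:142490249-142507957), whose promoter above holds no match, read 1855, 1966, 1639 and 1777 CPM in Atf3+/+FS6KD hearts and 1644, 1589, 1441 and 1655 CPM in Atf3-/-FS6KD hearts. The Atf3-/-FS6KD hearts read lower, with overlap at the control library of 1639 CPM (-0.19 ± 0.07, adjusted p = 0.425 in edgeR). Between the vectors, it read 1620, 1628 and 1736 CPM under the label shCtrl and 1819, 1857 and 1792 CPM under the label shAtf3, without overlap (0.13 ± 0.05, adjusted p = 0.346 in edgeR).

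Ldha (chr7:46842274-46855627), the member with the CRE in 1 of its 2 promoter windows, read 624, 718, 540 and 678 CPM in Atf3+/+FS6KD hearts and 654, 709, 609 and 568 CPM in Atf3-/-FS6KD hearts. Means were 640 ± 77.0 and 635 ± 60.3 (SD, n = 4), a log2 fold change of -0.01 ± 0.10 (adjusted p = 0.979 in edgeR). With AAV, it read 636, 604 and 597 CPM under the label shCtrl and 538, 570 and 584 CPM under the label shAtf3, lower without overlap (-0.12 ± 0.06, adjusted p = 0.438 in edgeR).

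**Figure D3:**
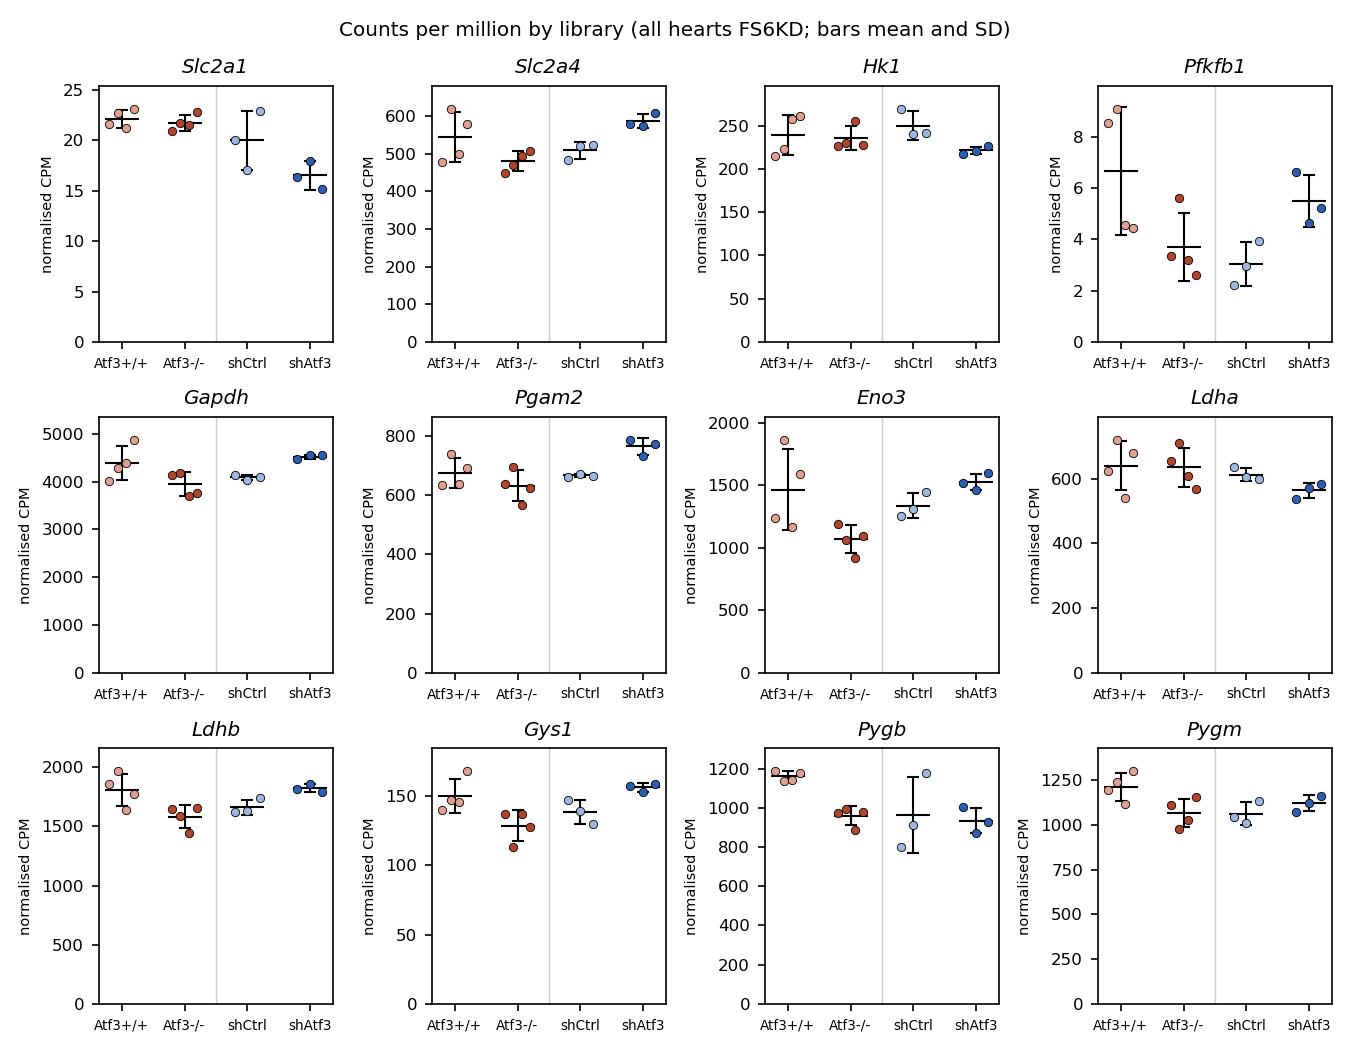
Normalised CPM of 12 genes by library in the 4 groups, with the mean and SD of each group as bars, and each experiment normalised on its own. Pygb and Gys1 are lower in Atf3-/- than in Atf3+/+ without overlap, and Slc2a4, Gapdh, Pgam2, Eno3, Ldhb, Pfkfb1 and Gys1 are higher in the libraries labelled shAtf3 without overlap.

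Glycogen synthesis was represented by Gys1, the muscle synthase, with Gbe1, the branching enzyme, and Ppp1r3c, which brings a phosphatase to glycogen. Gys1 (chr7:45434839-45456617) was the only member without overlap in both experiments. It read 140, 147, 146 and 168 CPM in Atf3+/+FS6KD hearts and 137, 113, 137 and 128 CPM in Atf3-/-FS6KD hearts, a gap of a few CPM between the groups (-0.22 ± 0.08, adjusted p = 0.432 in edgeR). Its log2 fold change was -0.20 among replicates 1 and 2 and -0.24 among replicates 3 and 4. It read 147, 139 and 130 CPM under the label shCtrl and 157, 153 and 159 CPM under the label shAtf3 (0.17 ± 0.06, adjusted p = 0.314 in edgeR). The 2 differences thus had opposite signs under the labels.

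Gbe1 read 75.6, 91.1, 95.4 and 85.9 CPM in Atf3+/+FS6KD hearts and 84.4, 77.3, 76.7 and 74.6 CPM in Atf3-/-FS6KD hearts (-0.15 ± 0.08). Its log2 fold change was -0.04 among replicates 1 and 2 and -0.26 among replicates 3 and 4. It read 97.6, 93.2 and 77.6 CPM under the label shCtrl and 98.7, 110 and 103 CPM under the label shAtf3, with about 1 CPM between the groups (0.22 ± 0.09, adjusted p = 0.360 in edgeR). Without shCtrl replicate 3, the lowest library, the Gbe1 value was 0.12. Ppp1r3c read 286, 227, 260 and 287 CPM in Atf3+/+FS6KD hearts and 208, 282, 249 and 279 CPM in Atf3-/-FS6KD hearts (-0.06 ± 0.11). With the vectors, it read 259, 274 and 224 CPM under the label shCtrl and 209, 253 and 252 CPM under the label shAtf3 (-0.09 ± 0.10), so the groups of Ppp1r3c overlapped throughout, and the last value was between -0.16 and -0.00 when 1 library was left out.

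On the side of glycogen breakdown, Pygb (chr2:150786796-150831748) had the lowest p of the members in the knockout experiment. It read 1186, 1135, 1140 and 1178 CPM in Atf3+/+FS6KD hearts and 973, 996, 887 and 977 CPM in Atf3-/-FS6KD hearts. All 4 control values lay above all 4 knockout values, with means of 1160 ± 26.0 and 958 ± 48.5 (SD, n = 4), or 0.826-fold (log2 fold change -0.28 ± 0.05, adjusted p = 0.248 in edgeR). Its log2 fold change was -0.23 among replicates 1 and 2, -0.32 among replicates 3 and 4, and between -0.29 and -0.24 when any library was left out. DESeq2 called it, at an adjusted p of 0.000298. After AAV injection, Pygb read 799, 913 and 1175 CPM under the label shCtrl and 1002, 872 and 928 CPM under the label shAtf3 (-0.04 ± 0.13, adjusted p = 0.925 in edgeR), so the control libraries alone spanned the whole range.

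Pygm, the muscle phosphorylase, read 1198, 1238, 1115 and 1300 CPM in Atf3+/+FS6KD hearts and 1109, 977, 1027 and 1156 CPM in Atf3-/-FS6KD hearts, lower with overlap (-0.18 ± 0.07, adjusted p = 0.444 in edgeR). It read 1045, 1009 and 1135 CPM under the label shCtrl and 1075, 1122 and 1164 CPM under the label shAtf3 (0.08 ± 0.06, adjusted p = 0.676 in edgeR, and 0.04 without shCtrl replicate 2). Phosphorylase kinase activates these enzymes, and its muscle regulatory subunit Phka1 read 62.4, 81.1, 74.2 and 74.3 CPM in Atf3+/+FS6KD hearts and 70.6, 72.2, 68.7 and 65.5 CPM in Atf3-/-FS6KD hearts (-0.08 ± 0.08, and -0.02 without control replicate 2 or -0.14 without control replicate 1). Phka1 read 81.1, 76.4 and 67.7 CPM under the label shCtrl and 91.4, 86.7 and 83.7 CPM under the label shAtf3, higher without overlap (0.22 ± 0.08, adjusted p = 0.288 in edgeR).

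The remaining members showed smaller or less regular differences. Gpi1, the isomerase after hexokinase, ranged from 491 to 673 CPM in the knockout experiment and was at 626 ± 32.9 in Atf3+/+FS6KD and 558 ± 46.9 in Atf3-/-FS6KD (-0.17 ± 0.07, adjusted p = 0.483 in edgeR, and -0.11 without Atf3-/-FS6KD replicate 2). Between the vectors, its log2 fold change was -0.02 ± 0.06. Tpi1, triosephosphate isomerase, ranged from 938 to 1117 CPM in the knockout experiment (-0.09 ± 0.06, adjusted p = 0.628 in edgeR). With AAV, Tpi1 was at 1001 ± 37.7 and 1089 ± 37.9 CPM (SD, n = 3), without overlap, though its unadjusted p was not below 0.05 (0.12 ± 0.06, adjusted p = 0.417 in edgeR). Pgk1, the first step that makes ATP, gave -0.07 ± 0.07 (adjusted p = 0.740, and -0.03 without Atf3-/-FS6KD replicate 4) and 0.12 ± 0.06 (adjusted p = 0.489) in edgeR, the latter 0.07 without shCtrl replicate 3. Aldoa gave -0.06 ± 0.06 (adjusted p = 0.780) in the knockout experiment, over a range of 2424 to 2899 CPM and with -0.01 without Atf3+/+FS6KD replicate 4, and 0.01 ± 0.06 (adjusted p = 0.979) in the AAV experiment in edgeR.

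Pfkl gave 0.00 ± 0.08 and -0.02 ± 0.06. Pfkp ranged from 58.5 to 104 CPM in the knockout experiment (0.25 ± 0.17, adjusted p = 0.639 in edgeR), with 0.47 among replicates 1 and 2 and 0.04 among replicates 3 and 4. Pfkp ranged from 63.2 to 127 CPM in the AAV experiment (-0.32 ± 0.20, adjusted p = 0.556 in edgeR), where shCtrl replicate 3 was the lowest of all 6, and without that library its log2 fold change was -0.55 (adjusted p = 0.0238 in edgeR). Without shCtrl replicate 1 the Pfkp value was instead -0.08 (adjusted p = 0.880 in edgeR), so it rests on single libraries. Pgam1 gave 0.20 ± 0.13 (adjusted p = 0.545 in edgeR) in the AAV experiment over a range of 91.8 to 137 CPM, and was 0.07 without shCtrl replicate 3 and 0.36 without shCtrl replicate 1. Of the genes that feed or prime glycogen, Ugp2, which makes UDP-glucose, ranged from 677 to 1127 CPM in the AAV experiment (0.07 ± 0.15) and gave 0.01 ± 0.12 in the knockout experiment. Glycogenin, Gyg, gave -0.02 ± 0.06 and 0.05 ± 0.09. Phkb, a regulatory subunit of phosphorylase kinase, gave -0.09 ± 0.05 (adjusted p = 0.615 in edgeR) and 0.01 ± 0.07, and Phkg1 gave 0.15 ± 0.24 and 0.02 ± 0.23.

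The differences of the members in the 2 experiments were compared in 1 fit of all 14 libraries, as the log2 fold change in the knockout experiment minus that in the AAV experiment. edgeR called 0 members, where it called 26 of 15703 genes (0.166%), and the lowest adjusted p among members was 0.0925, for Pfkfb1 (-1.71 ± 0.45). Unadjusted p was below 0.05 for 13 of 32 members (40.6%), against 17% of all genes. All 13 were below 0, against 7.55% of all genes below 0 and 9.4% above 0. This count and the values that follow take the AAV labels as given, and crossed labels would turn the sign of every AAV fold change that enters them. After Pfkfb1 the lowest were Ldhb (-0.33 ± 0.09, adjusted p = 0.107), Gys1 (-0.40 ± 0.11, adjusted p = 0.108), Eno3 (-0.65 ± 0.19, adjusted p = 0.122), Slc2a4 (-0.39 ± 0.12, adjusted p = 0.122) and Gapdh (-0.30 ± 0.09, adjusted p = 0.124) in edgeR. DESeq2 called these 6 members among 667 genes, with an adjusted p of 0.00836 for Pfkfb1 and 0.0273 for Ldhb and Gys1. It gave 0.0323 for Eno3, 0.0389 for Slc2a4 and 0.0409 for Gapdh. For Ldha the value was 0.10 ± 0.13 and for Hk1 0.15 ± 0.11, above 0. Leaving out 1 library took Ldha to 0.03 (without Atf3+/+FS6KD replicate 3) and Hk1 to 0.09 (without shCtrl replicate 1). With library sizes alone the members' median difference was -0.07 beside 0.11 over all genes. The experiments also differ in how Atf3 was targeted.

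Ratios of genes of the same step were taken inside each library, where library scaling cancels, on CPM that are not per length. With the vectors, 7 of 8 ratios of the other form to the muscle form were lower in the libraries labelled shAtf3, and 4 did not overlap. The log2 ratio of Ldha to Ldhb was -1.35, -1.43 and -1.54 under the label shCtrl and -1.76, -1.70 and -1.62 under the label shAtf3, a difference of -0.25. That of Slc2a1 to Slc2a4 was -4.59, -4.93 and -4.51 against -5.14, -5.00 and -5.32, a difference of -0.48. The ratio of Hk1 to Hk2 differed by -0.22 and that of Eno1 to Eno3 by -0.24. All 4 had an exact two-sided permutation p of 0.1, the smallest that 3 against 3 allows, and an adjusted p of 0.2 over the 8 ratios.

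In the knockout experiment 7 of the 8 ratios were higher in Atf3-/-FS6KD, and all 8 overlapped. The largest differences were 0.39 for Pfkp to Pfkm, 0.39 for Eno1 to Eno3 and 0.38 for Pgam1 to Pgam2. The lowest adjusted p, by exact two-sided permutation over 4 against 4 with a smallest possible p of 0.0286, was 0.229. Ldha to Ldhb was -1.50 ± 0.10 in Atf3+/+FS6KD and -1.32 ± 0.16 in Atf3-/-FS6KD (SD, n = 4; exact permutation p = 0.114). Pygb to Pygm was the ratio that was lower (-0.09, exact permutation p = 0.2).

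**Figure D4:**
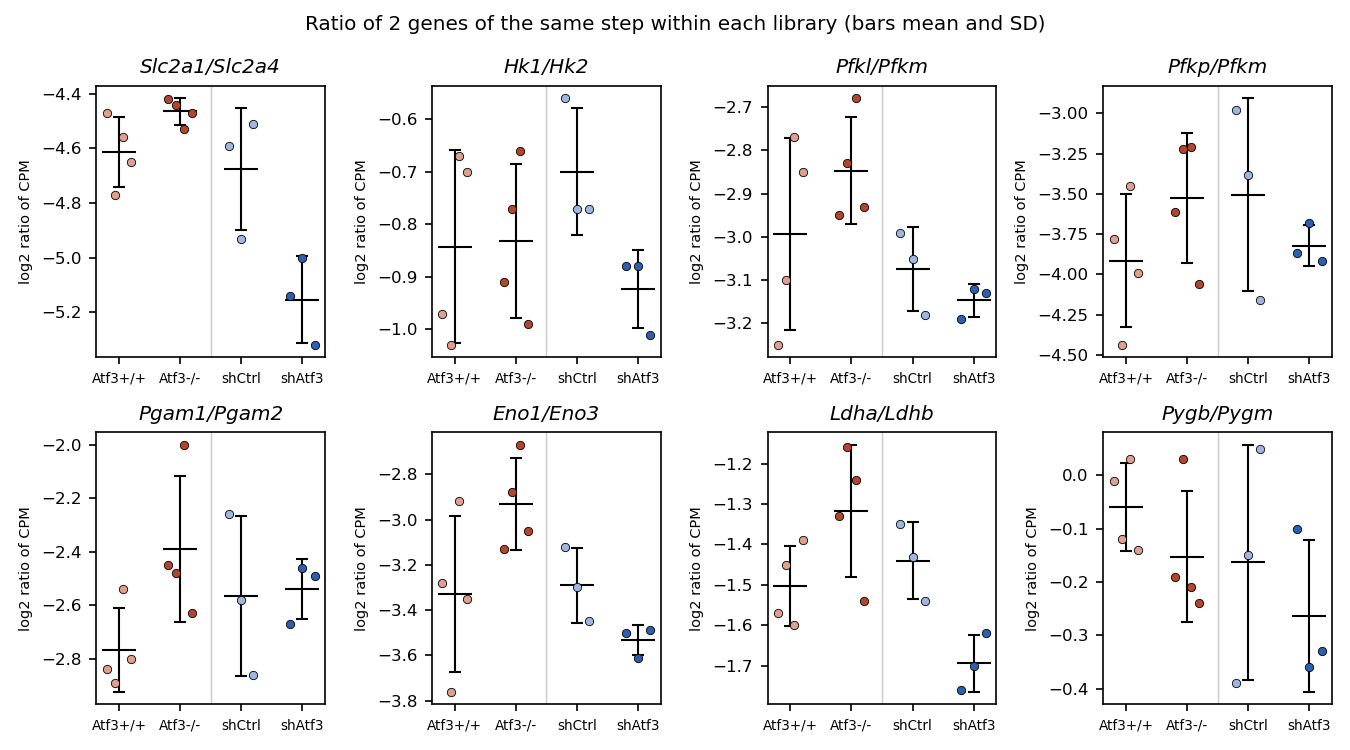
Log2 ratio of the CPM of 2 genes of the same step within each library, by group, with bars for the mean and SD. Slc2a1/Slc2a4, Hk1/Hk2, Eno1/Eno3 and Ldha/Ldhb are lower without overlap in the libraries labelled shAtf3, while all 8 ratios overlap between Atf3+/+ and Atf3-/-.

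Eno1 (chr4:150236708-150248879), the enolase of most tissues, is listed with a copy row, Eno1_1, and the rows were summed above. The sum read 127, 137, 154 and 156 CPM in Atf3+/+FS6KD hearts and 135, 144, 145 and 132 CPM in Atf3-/-FS6KD hearts (-0.05 ± 0.08, adjusted p = 0.861 in edgeR), with 0.09 among replicates 1 and 2 and -0.17 among replicates 3 and 4. It read 144, 133 and 132 CPM under the label shCtrl and 134, 120 and 142 CPM under the label shAtf3 (-0.05 ± 0.07). The sum thus overlapped in both experiments, but the rows did not share it alike. The copy row held 48.8%, 49.1% and 50.2% of the counts in Atf3-/-FS6KD replicates 1, 2 and 4, and 38.0% in replicate 3. In the other 10 libraries it held 37.1% to 38.2%. Taken apart, the Eno1 row was at -0.27 ± 0.11 (edgeR adjusted p = 0.459) and Eno1_1 at 0.25 ± 0.10 (edgeR adjusted p = 0.436) in the knockout experiment. After AAV injection, the rows gave -0.04 ± 0.08 and -0.05 ± 0.07. Between the genotypes the rows thus read in opposite directions, while their sum was near 0.

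**Figure D5:**
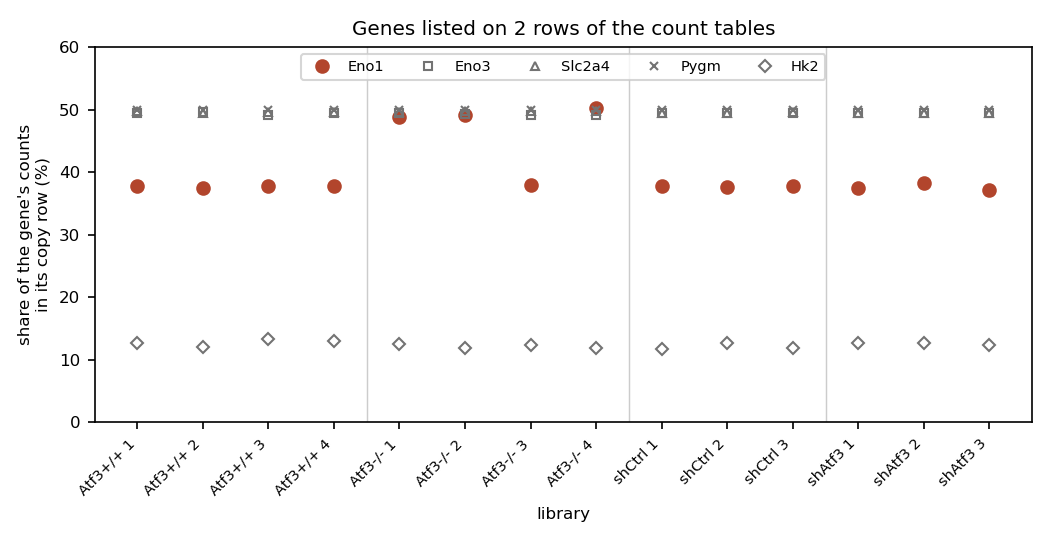
Share of a gene's counts that lies in its copy row, in percent, for the 5 members listed on 2 rows, in each of the 14 libraries. Eno1 stands at 48.8% to 50.2% in Atf3-/- replicates 1, 2 and 4 and at 37.1% to 38.2% elsewhere, while the other 4 genes keep to narrow bands.

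Copy rows were found for 4 further members and also summed. They held 49.4% to 49.8% of the counts of Slc2a4 and 11.7% to 13.3% of those of Hk2. Taken apart, Slc2a4 and its copy gave the same log2 fold change in the knockout experiment (-0.18), and so did Pygm and its copy (-0.18). Hk2 gave -0.02 and its copy -0.10, and Eno3 gave -0.45 and its copy -0.46. Gapdh, Ldha, Pgam1, Tpi1, Aldoa and Pgk1 have processed pseudogenes of near-identical sequence, and how reads shared with them were counted is not stated, nor is the use of strand, so their levels are uncertain to that extent.

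Other genes of the pathway, from lists drawn up with earlier results known, showed no adjusted call. Of 21 further glycolysis and glucose uptake genes tested, 2 were higher and 3 lower at p below 0.05 in the knockout experiment, and 4 higher and 2 lower in the AAV experiment. Over all genes these shares were 5.41% higher and 4.67% lower in the knockout experiment and 5.05% higher and 7.65% lower in the AAV experiment, which is the background for each list here. The lowest log2 fold change in the AAV experiment was that of Hk3 (-0.52 ± 0.21, 2.02 ± 0.388 to 1.41 ± 0.246 CPM). The highest in the knockout experiment was that of Eno2, neuronal enolase (0.39 ± 0.30). Of 20 further glycogen genes, 0 were higher and 1 lower in the knockout experiment, and 3 higher and 0 lower in the AAV experiment. Ppp1r3b, another glycogen-targeting subunit, was the highest of these in the AAV experiment (0.33 ± 0.13, adjusted p = 0.343 in edgeR) and Stbd1 the lowest (-0.16 ± 0.16). In the knockout experiment Nhlrc1 was the lowest (-0.30 ± 0.16) and Pgm2 the highest (0.28 ± 0.14).

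The 13 genes of pyruvate entry into mitochondria gave 0 higher and 2 lower in the knockout experiment (median -0.08) and 6 higher and 0 lower in the AAV experiment (median 0.13) at p below 0.05, where 5.05% of all genes were higher and 7.65% lower in the latter. Pdp2, the phosphatase that activates pyruvate dehydrogenase, was the lowest in the first (-0.40 ± 0.15, adjusted p = 0.432 in edgeR) and the highest in the second (0.34 ± 0.11, adjusted p = 0.243 in edgeR). Pdk4, the kinase that shuts pyruvate dehydrogenase off, varied too widely to compare, at 331 ± 273 CPM in Atf3+/+FS6KD hearts and 510 ± 271 CPM in Atf3-/-FS6KD hearts (SD, n = 4; 0.62 ± 0.60). Pdk3 was the lowest of the list in the AAV experiment (-0.14 ± 0.13). Of 12 genes of the pentose phosphate and hexosamine branches, 1 was higher and 1 lower in the knockout experiment, and 0 higher and 2 lower in the AAV experiment. Tkt, transketolase, was the lowest in the AAV experiment (-0.27 ± 0.09, adjusted p = 0.244 in edgeR) and Pgls the highest (0.14 ± 0.08). In the knockout experiment H6pd was the lowest (-0.28 ± 0.12) and Gfpt2 the highest (0.31 ± 0.20).

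Among 23 regulators of glycolytic genes, 0 were at p below 0.05 in the knockout experiment, and 3 were higher and 1 lower in the AAV experiment. The extremes in the AAV experiment were Ppargc1a, a coactivator of mitochondrial genes (0.28 ± 0.06, 105 ± 6.18 to 127 ± 2.60 CPM, adjusted p = 0.121 in edgeR), and Myc (-0.71 ± 0.16, 5.73 ± 1.18 to 3.51 ± 0.174 CPM, adjusted p = 0.127 in edgeR). Those in the knockout experiment were Myc (0.42 ± 0.26) and Klf15 (-0.27 ± 0.16).

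With the AAV labels taken as given, fibroblast, cardiomyocyte and macrophage markers leaned in opposite directions in the 2 experiments. Crossed labels would turn each AAV direction in this paragraph. All 8 fibroblast markers were higher in Atf3-/-FS6KD, 6 of them at p below 0.05, against 5.41% of all genes, and 0 passed adjustment. Their summed level was 1625 to 2008 CPM in Atf3+/+FS6KD hearts and 2030 to 2856 CPM in Atf3-/-FS6KD hearts. All 8 were lower under the label shAtf3 (2349 to 3277 CPM against 1704 to 1818 CPM), and Col1a1, Col1a2, Col3a1 and Postn passed adjustment (edgeR adjusted p = 0.0294, 0.0294, 0.0329 and 0.0299), against 0.539% of all genes. Of 10 cardiomyocyte markers, 9 were lower in Atf3-/-FS6KD (median -0.14, summed 79654 to 91239 CPM against 71686 to 88784 CPM) and 9 were higher in the libraries labelled shAtf3 (median 0.10, 79053 to 85825 CPM against 81807 to 86813 CPM). At p below 0.05, 3 were lower and 1 higher in the knockout experiment, against 4.67% and 5.41% of all genes. The higher one was Actc1 (0.47 ± 0.12, adjusted p = 0.317 in edgeR), which also read higher under the label shAtf3 (0.17 ± 0.06). All 6 macrophage markers were higher in the knockout experiment (121 to 153 CPM against 135 to 197 CPM) and lower in the AAV experiment (185 to 206 CPM against 165 to 167 CPM). Most members and most cardiomyocyte markers thus leaned the same way, and the part of cell composition in the members' values was not tested. The 6 endothelial markers had medians of 0.04 and 0.06 in the knockout and the AAV experiment, the 5 smooth muscle markers 0.13 and -0.10, and the 5 erythrocyte markers tested -0.20 and 0.04. Adipocyte markers summed to at most 0.664 CPM and lymphocyte markers to at most 3.18 CPM in any library. The atrial markers Myl7 and Sln reached at most 0.395 CPM, and the list summed, through Nppa, to 543 to 639 CPM in Atf3+/+FS6KD hearts and 288 to 727 CPM in Atf3-/-FS6KD hearts. The same list summed to 265 to 805 CPM in the libraries labelled shCtrl and 250 to 337 CPM in those labelled shAtf3, with Nppa at 608 ± 299 and 291 ± 42.0 CPM (SD, n = 3; -1.06 ± 0.34, adjusted p = 0.247 in edgeR). Of the 6 immediate early genes, 6 were lower in the knockout experiment and 4 in the AAV experiment, with 0 at p below 0.05 in each.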

How the data were processed

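Total RNA of 14 mouse hearts had been made into stranded mRNA libraries. The values the authors deposited are estimated counts, neither normalised nor pooled, made with featureCounts 2.0.0 on GRCm38.p6 according to the submitters' processing notes. The aligner and strand setting are not given in the sources used here. Between 19.3% and 24.4% of a library's values were not whole, and they were rounded. Where the design assumed whole counts, the same count tests were kept. Copy rows of 5 members were summed with the gene.

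Genes above 1 CPM in at least 1 library were fitted per experiment in edgeR 4.0.16 (TMM factors, quasi-likelihood test, Benjamini-Hochberg adjustment over all genes, threshold 0.05) on R 4.3.3. The experiments were compared in 1 fit of all libraries. The scripts were tested on simulated data. Isoform ratios were tested by exact permutation (SciPy 1.17.1). Lengths came from GENCODE and promoters from RefSeq, both on GRCm38. Alternatives were DESeq2 1.42.0, other scalings, no filter, copies apart, depth class, replicate block and leaving out each library.

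Members named library by library were those at p below 0.05 without overlap between groups, plus, whatever their values, Slc2a4, Slc2a1, Hk2, Pfkm, Gapdh, Pkm, Ldha, Ldhb, Pygm, Gys1, Ppp1r3c, Pfkfb2 and Eno1. From the lists, the extremes and adjusted calls were named. The members and lists were chosen with earlier results of these data known.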

Additional observations from a re-analysis of the deposited data

Results flagged for a closer look

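In the Atf3-/-FS6KD group, the copy row of Eno1 held 38.0% of the counts in replicate 3, far from the other 3 libraries of the group (48.8% to 50.2%), with a gap to the nearest of 0.885 of the group's range. In the Atf3+/+FS6KD group, replicate 2 was flagged at 37.4%, with a gap of 0.830, although that group spans less than a percentage point. Hk1 read 256 CPM in Atf3-/-FS6KD replicate 3, with a gap of 0.898. Of 74 groups tested in this way 3 were flagged, and chance flags about 1 in 20.

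Gys1 was lower in all 4 Atf3-/-FS6KD libraries than in all 4 controls and higher in all 3 libraries labelled shAtf3 than in all 3 labelled shCtrl, a difference between experiments of -0.40 (log2). The test of that difference gave an adjusted p of 0.108 in edgeR and 0.0273 in DESeq2.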

How the results depend on the processing

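No member passed adjustment in edgeR with the filter and all libraries, and calls appeared with DESeq2, without the filter on low counts or with fewer libraries. DESeq2 called 208 genes in the knockout experiment with 1 member (Pygb), 310 in the AAV experiment with 2 (Slc16a1, Pfkfb1), and 667 in the difference between experiments with 6. Without the filter on low counts, 2 genes were called in the knockout experiment, and 304 in the AAV experiment with 1 member (Pfkfb1). With library sizes alone the difference between experiments had 205 calls, and the members' median log2 difference was -0.02 in the knockout experiment, 0.02 in the AAV experiment and -0.07 in the difference, beside 0.06, -0.04 and 0.11 over all genes. Among replicates 1 and 2 alone the knockout median was -0.04, and among replicates 3 and 4 alone 8 genes were called. Leaving out 1 library gave 0 to 15 calls in the knockout experiment, 1 to 285 in the AAV experiment and 0 to 168 in the difference between experiments. It gave 0 to 2 members called in the AAV experiment, 2 only without shCtrl replicate 3, and a median there of 0.04 to 0.10. The cause of these shifts was not tested.

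Same-numbered libraries correlated at 0.234, 0.0531, 0.0467 and 0.168 in the knockout and -0.0577, 0.242 and 0.0727 in the AAV experiment. Differently numbered libraries correlated at -0.364 to 0.3 and at -0.284 to 0.201. These ranges hold the same-numbered values but for 1 in the AAV experiment (0.242), and so few pairs cannot settle whether the replicate numbers pair the samples. With the number as a replicate block, 0 genes were called in the knockout experiment, 20 in the AAV experiment and 54 in the difference, and 0 members in each.

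Of the members' log2 values under alternatives, 498 of 544 kept their direction and side of the threshold in the knockout experiment, 361 of 384 in the AAV experiment and 511 of 544 in the difference. With library sizes alone, a scaling that shifted all genes together as above, in the knockout experiment Aldoa was at 0.00, Eno1 at 0.01, Gyg and Hk1 at 0.04, Hk2 and Slc2a1 at 0.03, Ldha at 0.05 and Ppp1r3c at 0.00. Under the same scaling in the AAV experiment Aldoa and Phkb were at -0.03 and Phkg1 at -0.02, and in the difference Aldoa and Ugp2 were at 0.04, Eno1 at 0.10, Gyg at 0.03 and Hk2 at 0.02. The block put Eno1 at 0.00 in the difference. Among replicates 1 and 2 alone Eno1 was at 0.09, Gapdh at 0.01, Gyg and Ldha at 0.03, Hk1 at 0.06, Pfkfb2 at -0.04 and Phkg1 at -0.27. Among replicates 3 and 4 alone Hk2 was at 0.04, Pfkl at -0.06, Slc2a1 at 0.00 and Ugp2 at -0.10. Pfkl was at -0.00 with RLE factors, with DESeq2 and without the filter.

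Leaving out 1 library at a time, the knockout values that crossed 0 ranged from -0.06 to 0.01 for Gyg, -0.07 to 0.02 for Hk1, -0.07 to 0.00 for Hk2, -0.09 to 0.05 for Ldha, -0.05 to 0.11 for Pfkfb2, -0.07 to 0.05 for Pfkl, -0.05 to 0.32 for Phkg1, -0.13 to 0.03 for Ppp1r3c and -0.06 to 0.12 for Ugp2. In the AAV experiment they ranged from -0.04 to 0.05 for Aldoa, -0.10 to 0.03 for Eno1, -0.07 to 0.02 for Gpi1, -0.02 to 0.14 for Gyg, -0.01 to 0.08 for Hk2, -0.04 to 0.04 for Phkb, -0.19 to 0.37 for Phkg1, -0.16 to 0.13 for Pygb and -0.10 to 0.26 for Ugp2. In the difference they ranged from -0.07 to 0.05 for Eno1, -0.05 to 0.08 for Pfkl, -0.08 to 0.21 for Pgam1, -0.22 to 0.34 for Phkg1, -0.07 to 0.11 for Ppp1r3c and -0.26 to 0.10 for Ugp2. No isoform ratio passed with copy rows apart or with any 1 library left out. Groups of 3 against 3, and those of either experiment with 1 library left out, are too small to pass. Pfkfb1 and Phkg1 rest on the fewest counts among the tested members.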
